A study of Mus musculus with 2 samples.

Results

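The 44 genes described here are immediate-early genes, which cells transcribe within minutes of a stimulus, and heat shock genes, which encode protein chaperones. They were chosen by name, as the rows of both count tables that carry one of the 44 symbols, out of 32285 genes, and all 44 were found in both libraries. By role, 8 genes belong to the AP-1 family of transcription factors and 12 are other transcription factors. A further 15 are grouped as feedback genes, and 9 are heat shock genes. The feedback group holds genes that end or limit a signal and also others, such as *Btg1*, *Btg2* and *Mcl1*, which act on growth or survival. The levels come from 10x Genomics 3′ RNA-seq of single cells, sorted for tdTomato, of Clec3b.creERT2; Ai14.R26.tdTomato mice, in which tamoxifen lets a Cre expressed from the *Clec3b* gene switch on a permanent red label. Tamoxifen was given 2 weeks before a stabilized fracture of the right femur. The intact library (treatment: None) holds intact femoral diaphyses with the muscle around them, and the callus library (treatment: Fracture) holds the calluses of the same 3 littermate mice, both collected 3 weeks after surgery. Tissue of the 3 mice was pooled before sorting, so each condition is 1 library, mice cannot be told apart, condition and library cannot be told apart, and no test between conditions was possible.

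AP-1 is a dimer of a Fos and a Jun protein, and its genes are switched on by MAP kinase signals through factors that are already present in the cell. The feedback genes follow closely: among them, phosphatases, mRNA decay factors and inhibitors of NF-κB and JAK-STAT signalling shut the response down again. Heat shock factor 1 drives the inducible chaperones when proteins unfold, whereas *Hspa8* and *Hsp90ab1* are made by nearly every cell without stress. In muscle and bone, immediate-early genes are known to answer to injury, growth factors and loading, and they are also known to be induced while a tissue is dissociated. Both tissues were digested with collagenase before sorting, and levels before digestion were not measured.

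RNA molecules were counted as unique molecular identifiers (UMIs). Barcodes under 500 genes or over 10% mitochondrial UMIs were left out, which kept 1207 intact and 3295 callus cells with medians of 4939 and 6843 UMIs. Each was assigned by 19 marker lists to the type whose genes it carried most, and types bear the suffix "-like" because they rest on these markers alone. This placed 79.9% of intact and 78.5% of callus cells. The largest stromal type was fibroblast-like, with 270 intact and 199 callus cells. Osteoblast-like cells (1 and 38) and bone marrow stromal cell (BMSC)-like cells (0 and 39) were almost all from the callus. Most other cells were blood cells. The tdTomato transcript was not analysed here, so the label could not be checked cell by cell. The paper that reported these data found no meaningful tdTomato expression in blood and endothelial clusters. It treated these clusters as artifacts of sorting and excluded them, so blood and endothelial types here are not taken as *Clec3b*-lineage cells. The paper also states that cells of the myogenic lineage lack *Clec3b* expression. Myogenic progenitor-like and myofibre-like cells are therefore not taken as *Clec3b*-lineage cells either. The libraries are labelled as from male mice, but *Xist*, which is made from the inactive X of female cells, was widely detected. Among fibroblast-like cells with at least 5000 UMIs, 97.4% of 196 intact and 98% of 150 callus cells had an *Xist* UMI. Over all kept cells, 4 Y-linked genes together had 1 UMI in the intact and 0 in the callus library.

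A level is given in CPM, the UMIs of a gene per 1000000 UMIs of all cells of a type in 1 library. The 3′ kit reads 1 end of each molecule, so these levels need no correction for gene length. Ranges in parentheses or square brackets are 95% intervals for counting error only: cells are not replicates, and the spread between mice is unknown. A difference is given as log2 of callus over intact CPM, and "2-fold apart" is a description of 2 libraries. RNA of other cell types was present in most types. Haemoglobin genes, for example, summed to 1038 CPM in intact and 179 CPM in callus fibroblast-like cells, and genes of muscle contraction to 364 and 1176; their part in the results was not tested.

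Promoter windows of 250 bases before the start site were searched for 34 of the 44 genes (RefSeq, GRCm38.p6). By role, windows were searched for 8 of 8 AP-1 genes, 7 of 12 other transcription factors, 13 of 15 feedback genes and 6 of 9 heat shock genes. The remaining members were not searched, and neither was sequence outside the windows, so the counts below cover neither. A low count therefore does not show that a motif is absent from the regulatory sequence of the members. For these motifs, "all genes" means the 27025 genes whose windows were searched, not every gene of the count tables. A gene with several windows was counted once if any of them held the motif, so such genes had more chances. The cyclic AMP response element (CRE) is known as a switch of immediate-early promoters. Its core, TGACGT or its reverse complement ACGTCA, was found for 8 of 34 members against 7.29% of the 27025 genes searched. These were *Fos*, *Atf3*, *Maff*, *Egr2*, *Btg1*, *Btg2*, *Dusp1* and *Ppp1r15a*. A pair of inverted heat shock units, GAANNTTC or TTCNNGAA, was found for 5 of the 6 heat shock genes searched (*Hspa1a*, *Hspa1b*, *Hspb1*, *Hspe1* and *Hsph1*) against 14.5% of all genes. It was also found for 3 of 28 other members (*Fosl2*, *Jun* and *Egr2*). The pattern TGANTCA, a loose form of the AP-1 site that takes any base in the middle, was found for 1 of 34 members (*Zfp36l1*) against 7.82% of all genes. The CArG box of serum response factor was found for 2 (*Egr2* and *Zfp36*) against 1.62%. Both strands were searched, overlapping matches were each counted, and a match is a run of letters, not a bound site.

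*Fos* and *Dusp1* are shown for an activator and the phosphatase that ends its signal, and *Hspa1a* and *Hspa1b* for a pair of nearly identical heat shock promoters. Capitals mark CRE cores in the first pair and the heat shock pair in the second. *Fos* is read from chr12:85473640-85473889 on the + strand, and the others from the - strand of chr17:26508473-26508722 (*Dusp1*), chr17:34972157-34972406 (*Hspa1a*) and chr17:34959239-34959488 (*Hspa1b*).
Fos: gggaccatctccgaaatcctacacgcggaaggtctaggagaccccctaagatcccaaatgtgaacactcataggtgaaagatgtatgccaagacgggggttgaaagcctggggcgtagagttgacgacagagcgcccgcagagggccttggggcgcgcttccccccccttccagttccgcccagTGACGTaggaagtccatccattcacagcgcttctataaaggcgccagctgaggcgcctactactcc
Dusp1: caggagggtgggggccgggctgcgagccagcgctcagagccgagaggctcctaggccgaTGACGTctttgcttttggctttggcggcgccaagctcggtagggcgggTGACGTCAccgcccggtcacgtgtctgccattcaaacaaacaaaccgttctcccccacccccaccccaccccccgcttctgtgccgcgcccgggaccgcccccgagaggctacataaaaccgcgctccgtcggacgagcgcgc
Hspa1a: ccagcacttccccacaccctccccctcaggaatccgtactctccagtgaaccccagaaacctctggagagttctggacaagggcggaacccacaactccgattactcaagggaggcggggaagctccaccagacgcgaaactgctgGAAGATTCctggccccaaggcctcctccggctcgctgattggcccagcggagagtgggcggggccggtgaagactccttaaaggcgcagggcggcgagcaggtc
Hspa1b: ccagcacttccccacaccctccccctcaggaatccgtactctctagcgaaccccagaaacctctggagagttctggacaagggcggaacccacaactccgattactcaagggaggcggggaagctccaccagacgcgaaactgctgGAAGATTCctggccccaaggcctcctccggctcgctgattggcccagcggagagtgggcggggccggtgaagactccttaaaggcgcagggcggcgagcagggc

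The *Fos* core begins 66 bases before the start site. *Dusp1* holds 3 matches, beginning 191, 143 and 141 bases before it, of which the last pair overlap in a full palindrome. The heat shock pair begins 104 bases before both *Hspa1* start sites, and the 2 windows differ at 3 of 250 bases. The transcripts are close as well: 49.1% of the 91-base stretches of *Hspa1a* and 52.0% of those of *Hspa1b* were found in the other, but 0% of those in the last 500 bases, where this kit reads.

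The level of the 8 AP-1 genes ranged widely among cell types. Summed over the group, it was highest in myogenic progenitor-like cells, the *Pax7* lineage of muscle stem cells, at 30237 CPM (29343 to 31151) in the 21 intact cells and 22846 CPM (21896 to 23826) in only 11 callus cells. Fibroblast-like cells came next with 16079 CPM (15902 to 16258) in the intact and 15240.5 CPM (15050.5 to 15432) in the callus library. Macrophage-like cells followed at 15211 and 10917 CPM, with dendritic-like cells of the callus at 12676 CPM. Endothelial-like (10329 and 8243 CPM), monocyte-like (9064 and 9829) and B-lineage cells (8622 and 9690.0) lay close together, near the BMSC-like (9006) and osteoblast-like cells (7443) of the callus. At the low end were immature neutrophil-like cells with 1093 and 882 CPM, progenitor-like cells of the callus with 1433 and myofibre-like cells with 416 and 649 CPM.

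Heat shock genes were ordered differently. The highest sum with over 20 cells was that of progenitor-like cells, early blood cells whose leading genes were those of primary granules (*Mpo*, *Elane*, *Ctsg* and *Prtn3*), at 5622 CPM (5568 to 5676), although their AP-1 sum was among the lowest. Macrophage-like cells had 4990.4 and 3919 CPM and endothelial-like cells 4303 and 4005 CPM in the intact and callus libraries. Fibroblast-like cells reached 2934 and 3221 CPM, close to B-lineage cells with 2423 and 2817 CPM. Mature neutrophil-like cells stood out with the opposite pattern to progenitors: 6997 and 6658 CPM of AP-1 and only 420.1 and 511 CPM of heat shock genes. Across the 23 groups of a type and a library with at least 30 cells, the log2 AP-1 level had a Pearson r of 0.92 with the other transcription factors, 0.92 with the feedback genes and 0.32 with the heat shock genes; types from the same library and tissue are not independent points.

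**Figure D1:**
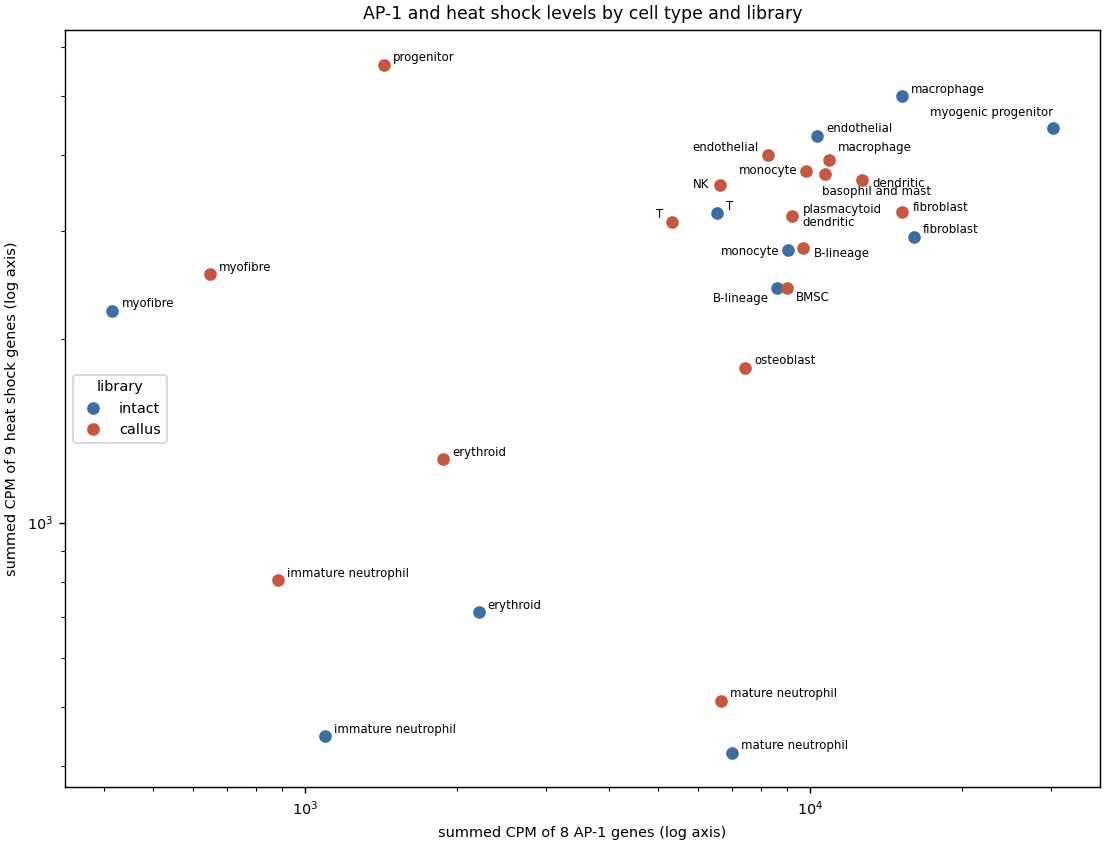
Each point is a gated cell type in the intact (blue) or callus (red) library with at least 20 cells; the horizontal axis is the summed CPM of the 8 AP-1 genes and the vertical axis that of the 9 heat shock genes, both on log axes. Mature neutrophil-like cells sit at the bottom right (6997 and 420.1 CPM in the intact library), progenitor-like cells at the top left (1433 and 5622 CPM), and fibroblast-like cells of both libraries lie side by side.

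Within AP-1, *Fos* and the Jun genes were shared out differently among the types. *Fos*, the inducible partner, was at 4778 and 5302 CPM in intact and callus fibroblast-like cells, at 3883 and 3913 in macrophage-like and 3099.9 and 4501 in monocyte-like cells, and reached 9150.0 CPM (8661 to 9659) in intact myogenic progenitors. In the callus its interval in fibroblast-like cells lay above that of every other type with at least 20 cells. Its lowest level was in myofibre-like cells, at 15.8 and 123 CPM. *Fosb*, a second Fos gene, followed it at 1168 and 1608 CPM in fibroblast-like cells, whereas *Fosl2* was highest in mature neutrophil-like cells (388 and 357 CPM).

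*Jun* was high in stromal cells, with 3113 and 2979 CPM in fibroblast-like and 2540.1 and 2019 CPM in endothelial-like cells. It was not confined to them: its highest callus level was in basophil and mast-like cells, at 3251 CPM. Mature neutrophil-like cells had 104 and 121 CPM of *Jun* but 3107 and 2540.3 CPM of *Junb*, its relative, so that *Junb* was the higher of this pair. *Jund*, the Jun gene that many cells express at rest, led in B-lineage cells at 6263 and 5744 CPM, above the 3388 and 2576 CPM of fibroblast-like cells. *Atf3*, a stress-induced partner of Jun proteins, was at 1179 and 1122 CPM in fibroblast-like, 1618 and 1054 in monocyte-like and 1372 and 1081 in macrophage-like cells, with 1581 in dendritic-like cells of the callus. Lymphoid cells were far lower, at 46.3 and 8.80 CPM in B-lineage and 7.68 and 13.1 in T-like cells. *Maff*, a small Maf factor, stayed under 100 CPM in every type with at least 20 cells except intact myogenic progenitors (237 CPM).

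**Figure D2:**
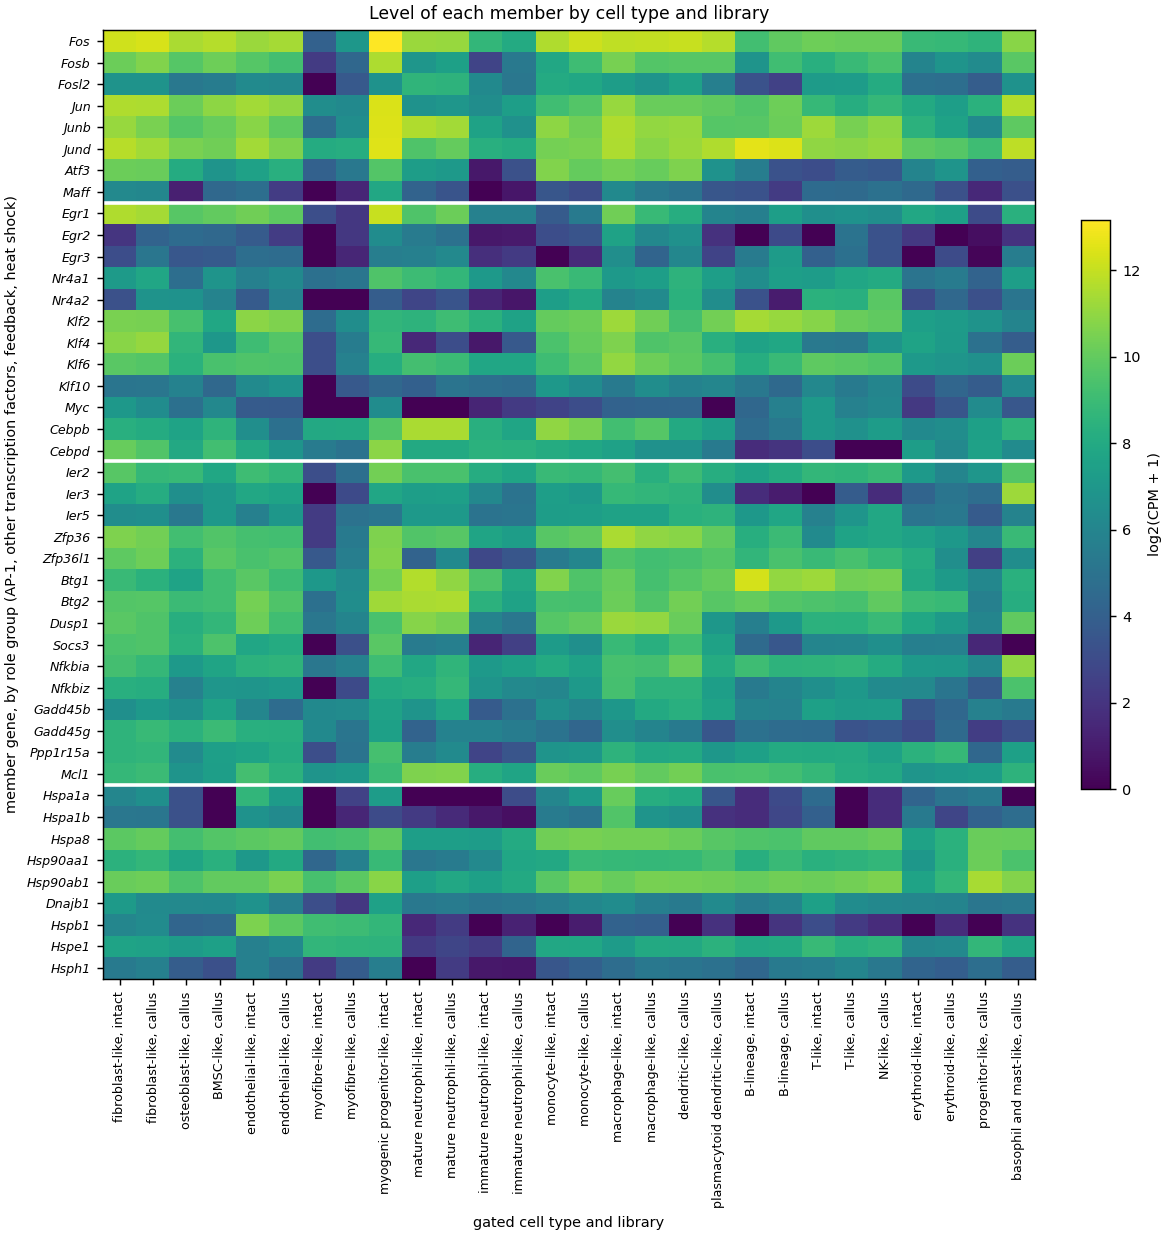
Rows are the 44 genes in their role groups, separated by white lines, columns are gated cell types in each library with at least 20 cells, and the colour is log2(CPM + 1). *Fos* is bright in fibroblast-like, monocyte-like and macrophage-like columns and dark in myofibre-like cells (15.8 CPM in the intact library), *Hspb1* is brightest in endothelial-like and myofibre-like columns (1516 and 554 CPM in the intact library), and *Hspa8* and *Hsp90ab1* are seen in all columns.

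Among the other transcription factors, *Egr1* and *Klf4* were high in fibroblast-like cells. *Egr1*, a zinc finger factor of the early growth response, had 3045 and 2689 CPM there, against 1244 and 952 in endothelial-like, 50.8 and 165 in B-lineage and 12.9 and 40.5 in monocyte-like cells, and only intact myogenic progenitors, at 4282 CPM, were higher among types with at least 20 cells. *Klf4* had 1811 and 2166 CPM in fibroblast-like cells and only 1.89 and 7.69 in mature neutrophil-like cells. Macrophage-like cells had 1562 and 748 CPM of *Klf4*, and monocyte-like cells 688 and 1048. *Cebpd*, a C/EBP factor of the acute-phase response, had 1109 and 771 CPM in fibroblast-like cells, 1872 in intact myogenic progenitors and 2.21 and 2.93 in B-lineage cells. Its relative *Cebpb*, a regulator of myeloid cells, was highest in mature neutrophil-like cells, at 2879.9 and 2830.5 CPM, and next in monocyte-like cells, at 1999 and 1481. *Klf2*, known for quiescence of lymphocytes and endothelium, was at 2628 and 2247 CPM in B-lineage and 1892 and 1564 in endothelial-like cells. It was also at 2380 CPM in intact macrophage-like cells, and at 1436 and 1424 in fibroblast-like cells. *Nr4a2*, an orphan nuclear receptor, was highest in NK-like cells of the callus (894 CPM [808 to 986]), while its relative *Nr4a1* was high in monocyte-like (657 and 483 CPM) and mature neutrophil-like cells (517 and 415) and, in the intact library, in myogenic progenitors (754). *Klf6* ranged up to 2074 CPM in intact macrophage-like cells. *Egr2*, *Egr3*, *Klf10* and *Myc* stayed at or under 190.0 CPM in every type with at least 20 cells.

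The feedback genes followed AP-1 in most types, with sums of 8645 and 8265 CPM in fibroblast-like and 13178 and 9799.9 CPM in macrophage-like cells. In both libraries they summed to more than AP-1 in mature neutrophil-like cells (11887 and 11161 CPM), immature neutrophil-like cells (2337 and 1458), erythroid-like cells (2383 and 1944) and myofibre-like cells (522 and 719), and in intact B-lineage cells the sums were nearly equal (8675 and 8622 CPM). In mature neutrophil-like cells *Btg2*, an anti-proliferative gene, was at 2887 and 2965 CPM, *Btg1*, its relative, at 3177 and 1977, and *Mcl1*, which keeps neutrophils alive, at 1580.0 and 1653. Much of the feedback sum of these cells was thus RNA of growth and survival genes. In intact B-lineage cells *Btg1* alone was at 5003 CPM. The comparison of feedback with AP-1 sums therefore depends on which genes the group holds. *Dusp1*, which dephosphorylates MAP kinases, was highest in macrophage-like cells (2305 and 2096 CPM), where *Zfp36*, a factor that speeds the decay of inflammatory mRNA, was also highest (2900.0 and 2024 CPM). Fibroblast-like cells were high in *Socs3*, an inhibitor of JAK-STAT signalling, at 700.1 and 749.6 CPM, in *Zfp36l1*, another mRNA decay factor, at 943 and 1201 and in the growth-arrest gene *Gadd45g* at 375 and 471. These 3 genes had 10.8, 664 and 24.4 CPM in callus B-lineage cells, while BMSC-like cells of the callus had 720.5, 886 and 493 CPM. *Ier3*, which modulates survival and ERK signals, reached 2381 CPM in the 35 basophil and mast-like cells of the callus, where *Nfkbia*, the NF-κB inhibitor, was at 1998 CPM. *Ppp1r15a*, which restarts translation after stress, was high in erythroid-like cells (355 and 446 CPM), whose AP-1 was low. *Ier2*, *Ier5*, *Nfkbiz* and *Gadd45b* were at 851 and 437, 85.5 and 93.7, 319 and 296 and 92.2 and 140.2 CPM in intact and callus fibroblast-like cells, each pair in that order.

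In the heat shock group, the constitutive chaperones *Hspa8*, of the Hsp70 family, and *Hsp90ab1* held most of the UMIs in fibroblast-like cells. There *Hspa8* was at 916 and 1059 CPM and *Hsp90ab1* at 1124 and 1227 CPM. Mature neutrophil-like cells had 165 and 167 CPM of *Hspa8* and 172 and 240.2 CPM of *Hsp90ab1*, and immature ones 154 and 266 and 179.7 and 254 CPM. Progenitor-like cells of the callus held 2790.3 CPM (2753 to 2828) of *Hsp90ab1* and 1168 CPM (1144 to 1193) of *Hsp90aa1*, the inducible Hsp90, both above every other callus type with at least 20 cells. *Hspe1*, the mitochondrial co-chaperonin, was at 416 CPM in these progenitors and 408 and 379 CPM in myofibre-like cells, and at 3.78 and 5.76 in mature neutrophil-like cells.

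The inducible Hsp70 genes *Hspa1a* and *Hspa1b* were low in most types. They were highest in macrophage-like cells, at 1082 CPM (905 to 1284) of *Hspa1a* in the intact and 294 CPM (254 to 338) in the callus library, with 777 and 113 CPM of *Hspa1b*. Endothelial-like cells had 402 and 151 CPM of *Hspa1a*, fibroblast-like cells 63.6 and 91.8, and neither library had an *Hspa1a* UMI in mature neutrophil-like cells. *Hspb1*, a small heat shock protein, was highest in endothelial-like (1516 and 910.0 CPM) and myofibre-like cells (554 and 515), with 412 in intact myogenic progenitors, against 64.7 and 79.4 in fibroblast-like and 0 and 2.93 in B-lineage cells. *Dnajb1*, an Hsp40 co-chaperone, was at 143 and 78.2 CPM in fibroblast-like cells, and *Hsph1*, of the Hsp110 family, did not exceed 61.8 CPM in any type with at least 20 cells.

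To compare a stromal with a blood type inside each library, fibroblast-like cells were set against B-lineage cells. Of the 41 members with at least 50 UMIs in both types together in the intact library, 27 were at least 2-fold higher in fibroblast-like cells and 1, *Btg1*, at least 2-fold lower, against 51.5% of all 6430 genes that were 2-fold apart in either direction. By direction, 32.3% of the 6430 genes were higher and 19.2% lower. In the callus library 21 of 43 were higher and 4 lower, against 48.2% of 6936 genes in either direction, 26.9% higher and 21.3% lower. *Egr1* (5.91 [5.32 to 6.57] intact and 4.03 [3.80 to 4.26] callus), *Socs3* (4.99 [4.10 to 6.05] and 6.12 [5.28 to 7.13]) and *Atf3* (4.67 [4.05 to 5.36] and 6.99 [6.07 to 8.13]) were far higher in fibroblast-like cells. *Cebpd* had 2178 intact and 1242 callus UMIs there against 1 and 3 in B-lineage cells, with log2 ratios of 8.97 (6.49 to 14.28) and 8.04 (6.49 to 10.32). *Btg1* went the other way in both libraries (-3.39 [-3.50 to -3.28] and -2.63 [-2.77 to -2.50]), as did *Jund* (-0.89 and -1.16). In the callus, *Egr3* and *Ier5* were also lower in fibroblast-like cells (-2.09 and -1.26). The AP-1 sum was higher by a log2 ratio of 0.90 (0.85 to 0.95) in the intact and 0.65 (0.62 to 0.69) in the callus library, and the heat shock sum by 0.28 (0.18 to 0.37) and 0.19 (0.13 to 0.26). *Hsp90ab1* (0.047 and -0.059) and *Hspe1* (-0.24 and -0.43) were near even between these types.

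Fibroblast-like cells were themselves divided by 4 marker lists, none of which holds a member. This does not make the lists independent of the members, since listed genes may be induced together with them, which was not tested. A cell had to lead over the other lists by at least 0.5, so cells with a similar Ptx3-type score were left out of the Pi16-type. In all, 150 intact and 108 callus fibroblast-like cells fell in no subset. The Pi16-type was scored by *Pi16*, *Dpp4*, *Sema3c*, *Cd55* and *Anxa3*, the Col15a1-type by *Col15a1*, *Smoc2*, *Cxcl14* and *Hsd11b1*, the Ptx3-type by *Ptx3*, *Has1* and *Tnfaip6*, and the Thbs4-type by *Thbs4*, *Cilp*, *Tnmd*, *Fmod* and *Comp*. In the intact library the AP-1 sum was 29233 CPM (28582 to 29894) in the 36 Col15a1-type cells, 16721 CPM (16253 to 17198) in the 33 Ptx3-type cells and 9851 CPM (9501 to 10210.0) in the 48 Pi16-type cells. Of 31 members with at least 50 UMIs, 14 were at least 2-fold higher in Col15a1-type than in Pi16-type cells and 0 lower, against 21.1% of all 1947 genes in either direction, 10% higher and 11% lower. The gap was widest for *Dnajb1* (3.23), *Ier2* (2.46), *Zfp36* (2.42) and *Btg2* (2.15). *Klf4* (-0.12), *Zfp36l1* (-0.17) and *Hsp90ab1* (-0.52) were not higher.

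The feedback sums of Ptx3-type and Pi16-type cells were 13185 and 5297 CPM. Of 37 members, 23 were at least 2-fold higher and 0 lower, against 5.88% of 1973 genes in either direction, 4.46% higher and 1.42% lower. Feedback genes made up 15 of the 37 members and 12 of the 23. These 12 included *Ier3* (2.88 [2.09 to 3.77]), *Zfp36* (2.25 [2.00 to 2.52]), *Socs3* (1.80 [1.49 to 2.11]), *Nfkbiz* (1.75 [1.33 to 2.19]) and *Nfkbia* (1.67 [1.38 to 1.96]). *Nr4a1* was higher too (2.67 [1.87 to 3.57]), whereas *Jun*, which was higher in Col15a1-type cells (1.81), was not (-0.12). In the callus, the 33 Thbs4-type cells had an AP-1 sum of 20594 CPM (20096 to 21102) against 7641 CPM (7227 to 8072) in 25 Pi16-type cells. There 19 of 34 members were at least 2-fold higher and 0 lower, against 22.9% of 1603 genes in either direction, 13.8% higher and 9.05% lower. Among the 19 were *Nr4a2* (4.53 [2.95 to 6.82]), *Ier3* (4.09 [3.02 to 5.42]), *Gadd45b* (3.12 [2.03 to 4.46]), *Nr4a1* (3.11 [2.09 to 4.35]) and *Atf3* (2.91 [2.43 to 3.43]). The heat shock sum moved little by subset: 3109, 3094 and 2669.8 CPM in intact Col15a1-type, Ptx3-type and Pi16-type cells. Each subset holds few cells from 3 pooled mice, and subset and mouse cannot be told apart.

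AP-1 RNA varied widely from cell to cell. With every cell reduced at random to 2000 UMIs, which left out 15 intact and 12 callus fibroblast-like cells, the median fibroblast-like cell held 26 intact and 25 callus AP-1 UMIs, with 10th to 90th percentiles of 4.80 to 63.6 and 2 to 57. The variance was 18.1 and 16.7 times the mean, where counting alone gives 1, against 1.58 and 1.82 for the heat shock sum. Heat shock UMIs had a median of 5 and percentiles of 2 to 10 in both libraries. Callus endothelial-like cells were more uneven still: the median was 6 AP-1 UMIs, the 90th percentile 47.4, and 15 of 87 cells held 0. BMSC-like cells held 0 in 7 of 34 and reached 44.6 at the 90th percentile. Intact myogenic progenitors were high throughout, with a 10th percentile of 39, above the 90th percentile of most types. Monocyte-like cells were more even, with a variance of 3.68 and 7.11 times the mean. Unthinned, the median fibroblast-like cell had 12515 intact and 12830.1 callus AP-1 CPM.

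**Figure D3:**
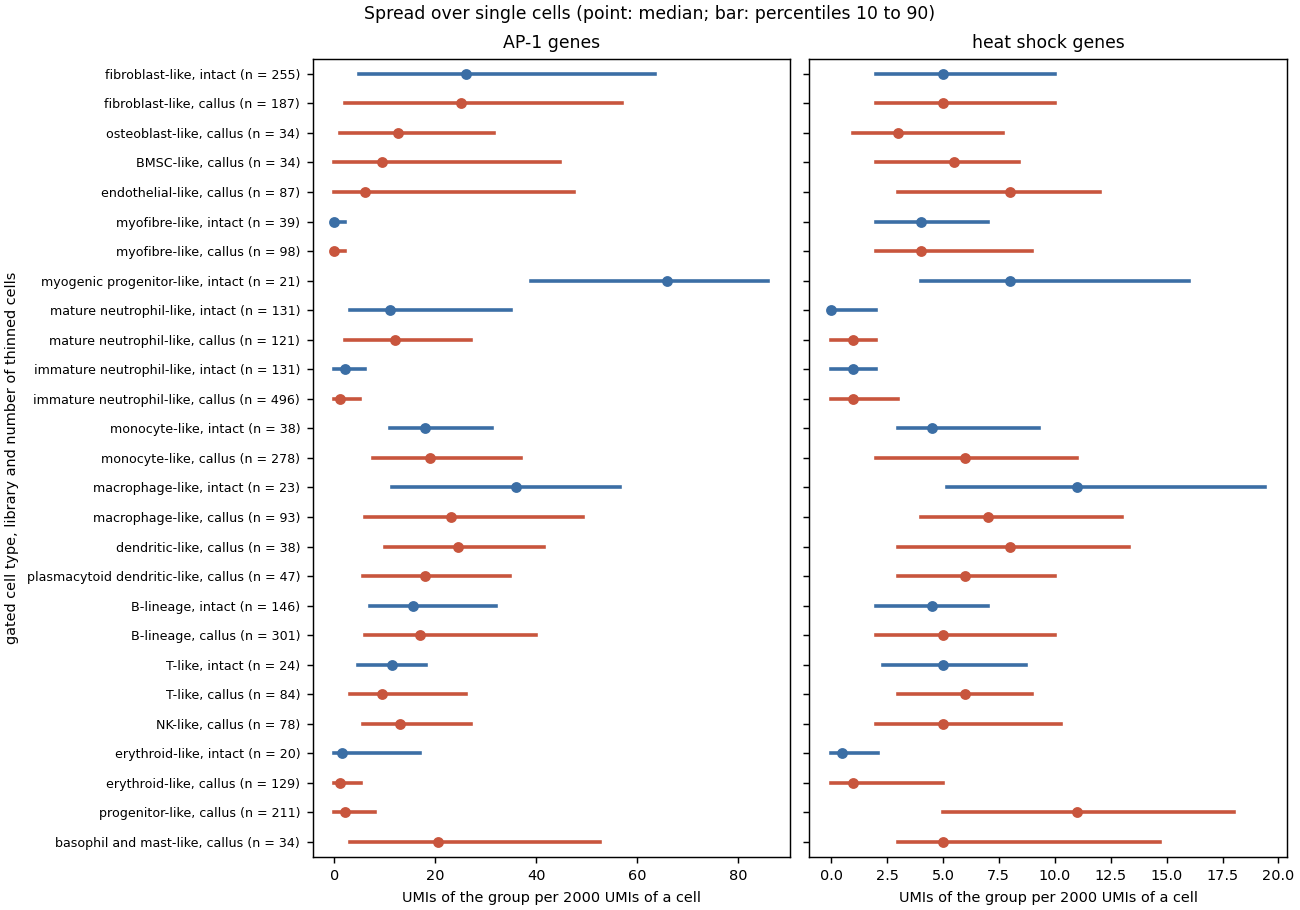
Points are the median and bars the 10th to 90th percentiles, over single cells thinned to 2000 UMIs, of the UMIs of the AP-1 genes (left) and the heat shock genes (right); rows are cell types of the intact (blue) and callus (red) libraries with the number of thinned cells. AP-1 bars of fibroblast-like cells run from 4.80 to 63.6 UMIs in the intact library, and heat shock bars reach highest in intact macrophage-like cells (19.4 UMIs) and progenitor-like cells (18).

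From cell to cell, AP-1 UMIs went with feedback UMIs and less with heat shock UMIs. In thinned fibroblast-like cells the Pearson r of AP-1 with the feedback genes was 0.68 over 255 intact and 0.68 over 187 callus cells, and with heat shock genes 0.26 and 0.39. For pairs of genes the highest values were 0.72 for *Jun* with *Jund* in the intact and 0.74 for *Junb* with *Egr1* in the callus library. *Fos* and *Jun* had 0.59 and 0.66, while *Hspa8* and *Hsp90ab1* had -0.01 and 0.087, with means of 1.73 to 2.27 UMIs per thinned cell. In callus endothelial-like cells AP-1 and heat shock UMIs had an r of 0.53 over 87 cells, and in mature neutrophil-like cells 0.019 over 131 intact cells. These are descriptions over cells that share a library, and depth and cell quality moved with them: the fibroblast-like cells with the lower mitochondrial share had an AP-1 level of 18483 intact and 17548 callus CPM, and the others 12821 and 11961. The shallower fibroblast-like cells had 14325 and 10991 CPM and the deeper ones 16925 and 17030.0. The part of depth and cell quality was not tested.

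Fracture calluses and intact tissue were compared type by type, beginning with fibroblast-like cells, the stromal type with many cells in both libraries. Summed over all fibroblast-like cells, immediate-early and heat shock levels were nearly alike in the libraries. The AP-1 sum differed by a log2 ratio of -0.077 (-0.10 to -0.053), the other transcription factors by -0.049 (-0.081 to -0.017), the feedback genes by -0.065 (-0.098 to -0.032) and the heat shock genes by 0.13 (0.08 to 0.19). Of 43 members with at least 50 UMIs, 2 were at least 2-fold apart, against 4.18% of all 7490 genes, which is near the share among the members. *Egr2*, with 6 intact and 28 callus UMIs, was the member left out for low counts. These sums mix subsets whose shares differed between the libraries. Intact and callus AP-1 levels were 29233 and 19712 CPM in 36 and 12 Col15a1-type cells. They were 9851 and 7641 in 48 and 25 Pi16-type cells, and 16721 and 16698.5 in 33 and 21 Ptx3-type cells. Thbs4-type cells, 3 and 33, had 16906 and 20594, and the unassigned rest 14447 and 14169. The part of this mix was not tested.

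Within the sums, genes went both ways. *Junb* (2275 and 1481 CPM, -0.62 [-0.69 to -0.55]), *Jund* (-0.40 [-0.45 to -0.34]), *Ier2* (851 and 437 CPM, -0.96 [-1.09 to -0.83]), *Cebpd* (-0.52 [-0.63 to -0.42]), *Myc* (-0.60 [-0.92 to -0.29]), *Btg1* (-0.49 [-0.64 to -0.33]), *Nfkbia* (-0.44 [-0.58 to -0.31]) and *Dnajb1* (143 and 78.2 CPM, -0.87 [-1.19 to -0.56]) were lower in the callus library. On the other side, *Fosb* (0.46 [0.38 to 0.54]), *Nr4a1* (0.64 [0.41 to 0.87]), *Ier3* (0.54 [0.34 to 0.74]), *Gadd45b* (0.61 [0.32 to 0.90]), *Zfp36l1* (0.35 [0.26 to 0.44]), *Gadd45g* (0.33 [0.18 to 0.48]) and *Hspa1a* (0.53 [0.18 to 0.88]) were higher. *Fos* (0.15 [0.11 to 0.19]), *Jun* (-0.064 [-0.12 to -0.0089]), *Egr1* (-0.18 [-0.24 to -0.12]), *Klf4* (0.26 [0.19 to 0.33]), *Hspa8* (0.21 [0.11 to 0.31]) and *Hsp90ab1* (0.13 [0.038 to 0.21]) were near even. The intervals cover counting error only.

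The 2 members that were 2-fold apart rested on few cells. *Nr4a2* had 17 UMIs in 9 of 270 intact cells and 175 UMIs in 32 of 199 callus cells, where the highest cell held 25, a log2 ratio of 3.65 (2.93 to 4.46). *Egr3* had 15 UMIs in 11 intact and 57 in 18 callus cells (2.21 [1.37 to 3.14]), and after thinning to 2000 UMIs its ratio was 0.45. Thinning leaves fewer UMIs of a gene already this low, and no interval was computed for the thinned ratio. A further list of 33 genes held other immediate-early genes together with regulators upstream of them that are not immediate-early genes, among them the kinases *Mapk3* and *Mapk14*. Of the 33, 23 had at least 50 UMIs, with a median log2 ratio of 0.07 and 1 at least 2-fold apart: *Ccn2*, a matricellular target of YAP and TGF-β signals, at 30.5 intact and 139.6 callus CPM (2.19, 1.78 to 2.63). Among those with at least 100 UMIs, the highest after it were *Sik1* (0.57) and *Trib1* (0.56), and the lowest the kinases *Mapk14* (-0.61) and *Mapk3* (-0.47) and the immediate-early gene *Sertad1* (-0.43). Of 23 other heat shock genes and regulators, 22 were compared and 0 were 2-fold apart, from *Cryab*, a small heat shock protein of muscle (-0.70, -0.97 to -0.44), to *Bag3*, a co-chaperone (0.53, 0.22 to 0.84).

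**Figure D4:**
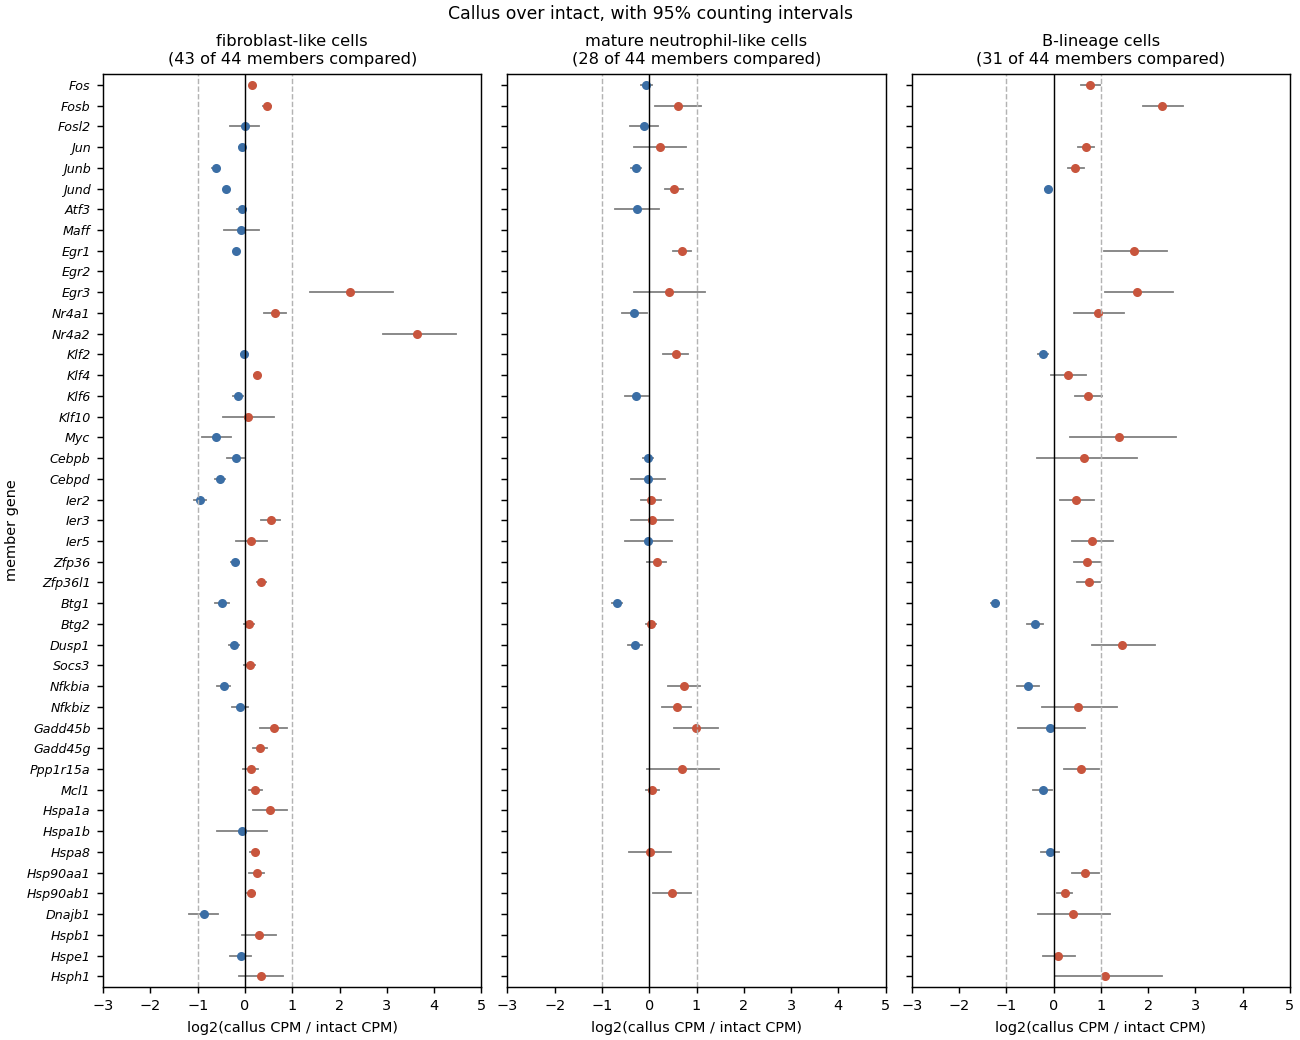
Each row is a member and each panel a cell type; points are log2 of callus over intact CPM (red above 0, blue below), bars are 95% counting intervals, dashed lines mark 2-fold, and genes under 50 UMIs have no point. In fibroblast-like cells only *Egr3* (2.21) and *Nr4a2* (3.65) pass the dashed lines, in mature neutrophil-like cells no gene does, and in B-lineage cells *Fosb* (2.30) lies farthest to the right and *Btg1* (-1.24) farthest to the left.

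Mature neutrophil-like cells, 135 in each library, had median depths of 3729 and 3777 UMIs. The AP-1 sum differed by -0.072 (-0.14 to -0.0044) and the heat shock sum, on 222 and 266 UMIs, by 0.28 (0.021 to 0.55). Of 28 members with at least 50 UMIs, 0 were 2-fold apart, against 3.76% of 2020 genes, though *Gadd45b* (112 and 221 CPM, 0.99 [0.52 to 1.46]) was just inside. *Egr1* (734 and 1188 CPM, 0.69 [0.51 to 0.88]), *Nfkbia* (0.73 [0.40 to 1.07]), *Nfkbiz* (0.58 [0.28 to 0.88]), *Jund* (0.51 [0.33 to 0.70]) and *Klf2* (0.56 [0.29 to 0.83]) were higher in the callus, and *Btg1* (3177 and 1977 CPM, -0.68 [-0.80 to -0.57]), *Junb* (-0.29 [-0.40 to -0.19]), *Dusp1* (-0.30 [-0.44 to -0.16]) and *Nr4a1* (-0.32 [-0.58 to -0.053]) lower.

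In B-lineage cells, 157 intact and 317 callus, more of the members were apart: 7 of 31, against 5.64% of 4323 genes. *Fosb* was at 113 and 554 CPM (2.30 [1.88 to 2.74]), *Egr3* at 44.1 and 151 (1.77 [1.09 to 2.52]), *Egr1* at 50.8 and 165 (1.70 [1.07 to 2.40]) and *Dusp1* at 50.8 and 139 (1.45 [0.81 to 2.15]), all higher in the callus library. *Myc* and *Hsph1*, with 9 intact UMIs each, were also more than 2-fold higher. *Fos* (583 and 999 CPM, 0.78 [0.58 to 0.98]) and *Jun* (755 and 1211 CPM, 0.68 [0.51 to 0.86]) were higher by less, and *Jund*, which carries most of the AP-1 RNA of these cells, was lower (-0.12 [-0.19 to -0.06]), so that the AP-1 sum differed by only 0.17 (0.11 to 0.22). *Btg1* was lower (5003 and 2118 CPM, -1.24 [-1.33 to -1.15]). The deeper B-lineage cells had less AP-1 RNA, 7503 against 10247 CPM in the intact and 7898 against 12614 in the callus library; median depth was 2771 and 2914 UMIs.

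Macrophage-like cells, 26 intact and 110 callus, had lower levels in the callus library in all 4 role groups. The AP-1 sum differed by -0.48 (-0.55 to -0.40), the other transcription factors by -0.77 (-0.87 to -0.66), the feedback genes by -0.43 (-0.51 to -0.35) and the heat shock genes by -0.35 (-0.48 to -0.22). Of 38 members, 6 were at least 2-fold lower and 2 higher, against 15.1% of 2484 genes in either direction. Of these genes, 5.19% were lower and 9.86% higher. *Hspa1b* (777 and 113 CPM, -2.78 [-3.24 to -2.33]) and *Hspa1a* (1082 and 294 CPM, -1.88 [-2.21 to -1.55]) had the largest gaps, with *Egr1* (-1.45 [-1.74 to -1.16]), *Klf4* (-1.06 [-1.31 to -0.81]), *Jun* (-1.01 [-1.21 to -0.80]) and *Egr2* beside them. *Gadd45b* was higher (1.04 [0.27 to 1.91]), as was *Klf10* on 5 intact UMIs. *Fos* was not lower (3883 and 3913 CPM, 0.011 [-0.13 to 0.16]). A list of granule and related myeloid genes, which includes *Lyz2*, *Elane* and *Mpo*, summed to 7791 CPM in intact and 18164 CPM in callus macrophage-like cells. The list is not specific to neutrophils, so RNA of the macrophage-like cells themselves and of other cells cannot be told apart in this sum. Its part in these differences was not tested.

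Monocyte-like cells, 39 and 279, differed in the other direction for heat shock genes (0.43 [0.34 to 0.52]). *Hsp90aa1*, *Hsp90ab1* and *Hspa1a* were at 243 and 475, 874 and 1404 and 64.6 and 140.5 CPM in the intact and callus libraries. Of 39 members, 5 were 2-fold apart, against 11.1% of 6618 genes: *Fosb* (1.19 [0.88 to 1.51]), *Hspa1a* (1.12 [0.54 to 1.76]), *Egr1* (1.65 [0.39 to 3.29]) and *Nfkbiz* (1.03 [0.45 to 1.68]) higher and *Btg1* (-1.12 [-1.25 to -0.99]) lower. In endothelial-like cells, 29 and 100, 4 of 31 members were 2-fold apart, against 12.5% of 2295 genes, namely *Dusp1* (1205 and 558 CPM, -1.11 [-1.46 to -0.76]), *Hspa1a* (402 and 151 CPM, -1.41 [-2.03 to -0.76]), *Cebpd* and, higher on 4 intact UMIs, *Ier5*. Of the 2295 genes, 9.06% were at least 2-fold higher and 3.4% lower. *Hspb1*, the leading heat shock gene of endothelial-like cells in the intact library, was lower in the callus as well (1516 and 910.0 CPM, -0.74 [-1.03 to -0.43]).

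Immature neutrophil-like cells, 131 and 500, had 10 of 34 members 2-fold apart, against 22.1% of 6934 genes, and there the median of all genes lay 0.40 above even. By direction, 6 members were higher and 4 lower, against 20.4% and 1.7% of the 6934 genes. *Hsp90aa1* (73.3 and 219.7 CPM, 1.58 [1.28 to 1.90]) and *Fosb* (5.52 and 38.7 CPM, 2.81 [1.75 to 4.14]) were higher in the callus, and *Btg1* (724 and 244 CPM, -1.57 [-1.69 to -1.45]), *Ier3* (-1.18 [-1.54 to -0.80]), *Fosl2* (-1.04 [-1.39 to -0.69]) and *Nr4a1* (-1.03 [-1.28 to -0.77]) lower. *Gadd45b*, *Hspe1*, *Atf3* and *Klf4* were the others, all higher. Erythroid-like cells, 20 and 135, had 6 of 32 apart, against 29.2% of 2748 genes with a median of 0.56: *Hsp90aa1* (1.41 [0.91 to 1.95]) and *Hsp90ab1* (1.11 [0.71 to 1.53]) higher, and *Zfp36l1* (-1.65 [-2.07 to -1.23]), *Cebpd*, *Ier2* and *Nfkbiz* lower. By direction, 2 members were higher and 4 lower, against 27.4% and 1.78% of the 2748 genes. In T-like cells, 27 and 86, 3 of 29 were apart, against 7.77% of 1955 genes, of which only *Zfp36* reached 100 UMIs (1.36 [0.42 to 2.46]). Myofibre-like cells, 67 and 212, had 14 members with at least 50 UMIs, of which 4 were 2-fold higher in the callus, against 7.66% of 1593 genes in either direction and 5.71% higher. These were *Fos*, *Junb*, *Klf2* and *Btg2*, with 4 to 7 intact and 52 to 74 callus UMIs each, and the AP-1 sum was 416 and 649 CPM.

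Across the 10 types with at least 20 cells in both libraries, the direction of each member was counted. *Btg1* was lower in the callus in 10 of 10 types, with log2 ratios from -0.49 to -1.57, and the interval lay below 0 in 9, the exception being myofibre-like cells (-0.67 [-1.35 to 0.02]). It was the only one of the 10 members with at least 50 UMIs in every type to do so, against 3.02% of the 430 genes so measured. *Hsp90ab1* was higher in 10 of 10, from 0.13 to 1.11, with the interval above 0 in 9, the exception being T-like cells (0.15 [-0.10 to 0.42]), against 10.5% of the 430 genes, which is near the share among the members. With only 10 members so measured, neither count of 1 sets them apart from other genes. The size of the *Hsp90ab1* difference varied by type: the gene was at 874 and 1404 CPM in monocyte-like cells and 1124 and 1227 CPM in fibroblast-like cells. The 10 types come from the same 2 libraries, so they are not 10 separate observations.

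The other 8 went both ways. *Junb* was lower in 8 types and higher in B-lineage and myofibre-like cells, *Jund* lower in 7, *Btg2* and *Klf2* lower in 7, *Jun* and *Mcl1* lower in 6, *Fos* higher in 6 and *Hspa8* higher in 8. Among members measured in fewer types, *Cebpd* was lower in 7 of 7, with the interval below 0 in 4, and *Hsp90aa1* higher in 7 of 8, with the interval above 0 in 6. *Fosb* was higher in 7 of 9, and in the other 2, endothelial-like (-0.49 [-0.88 to -0.073]) and macrophage-like cells (-0.86 [-1.11 to -0.60]), lower.

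**Figure D5:**
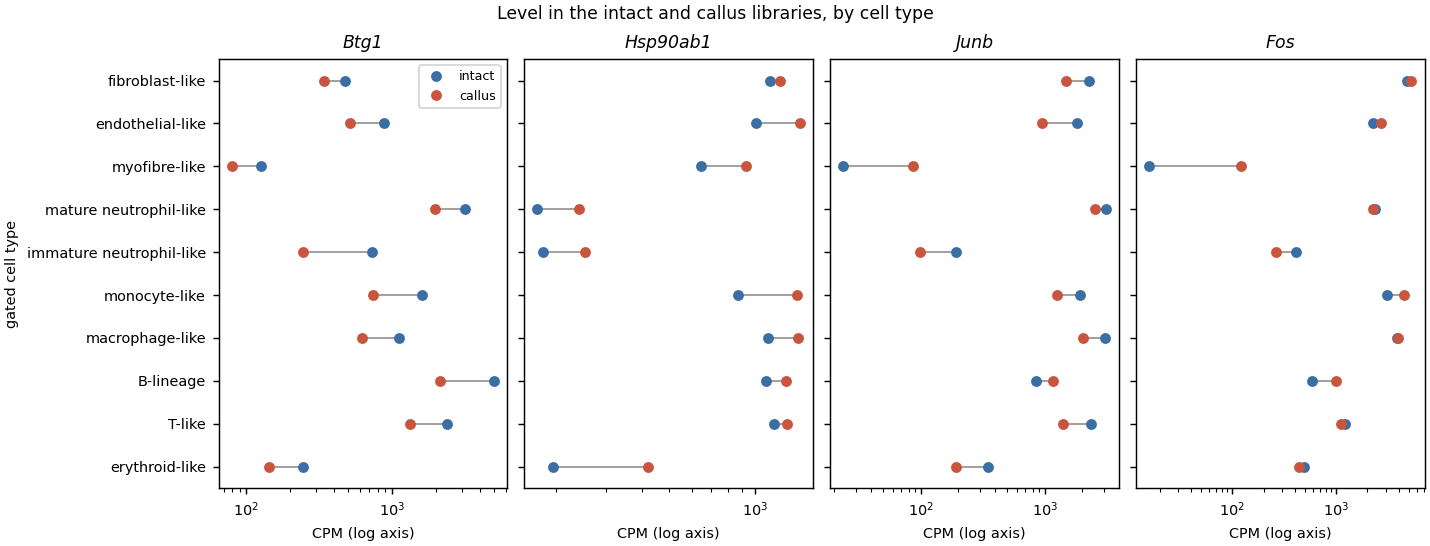
Each panel is a gene and each row a cell type; blue points are the intact and red points the callus level in CPM on a log axis, whose range differs between panels. *Btg1* points are red on the left in every row (B-lineage: 5003 and 2118 CPM), *Hsp90ab1* points red on the right in every row, and *Junb* and *Fos* switch sides between rows, most widely for *Fos* in myofibre-like cells (15.8 and 123 CPM).

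Among all 7047 genes with at least 500 UMIs, those whose log2 level over the 23 groups was most like that of *Fos* were *Zfp36* (Pearson r = 0.97), *Klf6* (0.92), *Sppl2a* (0.90), *Rrbp1* (0.90) and *Hif1a* (0.90), the first 2 being members. For *Hspa1a* they were *Cln8* (0.84), *Hspa1b* (0.84), *Arf2* (0.80), *Klf4* (0.80) and *Mcub* (0.79). The groups share 2 libraries and *Hspa1a* was at or near 0 in many, so these values are descriptions.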

How the data were processed

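Per the file header and the submitters' processing notes, the authors aligned reads with Cell Ranger 6.0.0 to mm10 and deposited raw UMI counts for 1872 intact and 3987 callus barcodes. The annotation release is not given in the sources used here. Deposited totals were 12112002 and 36714322 UMIs. The members, gene lists and comparisons were chosen with earlier results of these data known, and the gate limits were set after seeing the data.

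Barcodes under 500 genes or over 10% mitochondrial UMIs were removed, 665 from the intact and 692 from the callus library. A cell's score for a marker list was the mean of log2((cell CPM + 100) / (mean CPM + 100)). A cell was assigned to the highest list at a score of at least 1 and a lead of at least 0.5, and fibroblast-like cells to a subset at a score of at least 0.5; 243 intact and 710 callus cells stayed unassigned. Scrublet called 3 and 4 doublets, few for this many cells, so doublets were not taken as removed. The 2 libraries shared 1 barcode.

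UMIs were summed per type and library. Intervals at 95% are exact Poisson for levels and exact conditional binomial for ratios. A gene was compared at 50 or more UMIs in both groups together and counted as apart at 2-fold. With 1 library a condition there was no test and no p-value. In each comparison naming was meant for members with at least 100 UMIs, but not all of these were named. A member left unnamed did not necessarily have fewer. Members that were 2-fold apart on fewer UMIs were named after their values were seen. Thinning drew 2000 UMIs per cell. The ratio script was checked on simulated data. Alternatives were other cell filters, a stricter gate, equal weight per cell, thinning, another total, doublet scores and other count minimums. *Hspa1a* and *Hspa1b* share much of their transcript, so some reads outside the 3′ end may match both genes. How such reads entered the counts was not checked. Python 3.11.15, numpy 2.4.6, scipy 1.17.1, pandas 2.3.3, scanpy 1.11.5 and matplotlib 3.10.9 were used.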

Additional observations from a re-analysis of the deposited data

Results flagged for a closer look

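Of the 42 members compared in at least 2 cell types, 5 were at least 2-fold higher in the callus library in one type and at least 2-fold lower in another, with both intervals away from even, against 1.19% of the 7505 genes so compared. Genes compared in more types have more chances to do so, and the numbers of types were not matched. The difference between cell types was not tested. *Egr1* stood at 1.65 in monocyte-like cells, on 5 intact UMIs, 1.70 in B-lineage cells and at -1.45 in macrophage-like cells. *Klf4* stood at 3.89 in immature neutrophil-like cells, on 1 intact UMI, and at -1.06 in macrophage-like cells. *Dusp1* stood at 1.45 in B-lineage and -1.11 in endothelial-like cells. *Nfkbiz* stood at 1.03 in monocyte-like and -1.09 in erythroid-like cells. *Hspa1a* stood at 1.12 in monocyte-like cells, -1.41 in endothelial-like cells and -1.88 in macrophage-like cells.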

How the results depend on the processing

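No paired analysis was possible because each condition is 1 library of pooled mice. The 8 summed log2 ratios kept their sign under 9 of 9 alternatives each, and the causes of the shifts below were not tested. With cells thinned to 2000 UMIs, the callus over intact ratio of fibroblast-like cells was -0.18 for AP-1, from -0.077, and 0.037 for heat shock genes, from 0.13, and 0 compared members were 2-fold apart, from 2, as *Nr4a2* (3.20) then had under 50 UMIs. The share of all genes apart was then 4.24%, from 4.18%. A stricter gate gave -0.11 for that AP-1 ratio. Without mitochondrial, haemoglobin, muscle and granule genes in the total, the AP-1 ratio of mature neutrophil-like cells was -0.15, from -0.072. The AP-1 ratio of B-lineage cells was 0.23 with equal weight per cell and 0.26 after thinning, from 0.17. The fibroblast-like over B-lineage AP-1 ratio was 1.04 with the stricter gate, 0.73 with equal weight and 0.80 after thinning in the intact library, from 0.90, and 0.78, 0.39 and 0.36 in the callus library, from 0.65. The count of 0 members apart in mature neutrophil-like cells became 1 under either other cell filter, equal weight, thinning or removal of the highest doublet scores, 3 at a minimum of 20 UMIs and 5 at 1 UMI in each library. Where the count became 1, the share of all genes apart was 3.18% to 4.01%, from 3.76%. At the lower minimums, 3 of 35 members stood against 7.87% of all genes and 5 of 41 against 21.8%. *Egr3* in fibroblast-like cells was 0.45 after thinning, from 2.21, on few UMIs and without an interval. *Hspa1a* in macrophage-like cells was -1.34 with equal weight, from -1.88. Leaving out, in each library, the fibroblast-like cell with the most *Nr4a2* UMIs gave *Nr4a2* 3.82. Centring each type on its median gene kept *Btg1* lower and *Hsp90ab1* higher in 10 of 10 types. *Btg1* was lower in 9 of 10 under a cell filter that changed 2 limits together (1000 genes or more, 5% mitochondrial UMIs or less). *Hsp90ab1* was higher in 9 of 10 after thinning. All alternatives for these single genes (*Btg1*, *Hsp90ab1*, *Nr4a2*, *Egr3* and *Hspa1a*) were chosen after seeing the data. With 1 library a condition, neither depth nor cell number can show how far mice differ.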

Other observations

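The barcodes left out for having under 500 genes carried little immediate-early RNA as a share of all their UMIs, and those left out for mitochondrial RNA carried more. Those with under 500 genes, 628 intact and 539 callus, held 94.5% and 84.1% haemoglobin UMIs, and their AP-1 sum was 151 and 243 CPM. These sums are relative to totals that were mostly haemoglobin, and levels relative to the remaining UMIs were not computed. The 37 intact and 153 callus barcodes over 10% mitochondrial UMIs had 5559 and 3089 CPM of AP-1 genes. Over all kept cells the AP-1 sum was 8913 CPM in the intact and 4942 CPM in the callus library, and the heat shock sum 2425 and 3543 CPM, values that also depend on the mix of cell types.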
